A study of Drosophila melanogaster with 2 samples.

Results

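Intergenic peaks away from transcription start sites were examined in a chromatin immunoprecipitation and sequencing (ChIP-seq) experiment on CG11294-eGFP in Drosophila melanogaster. They were the peaks of the conservative, replicate-thresholded list whose summit lay in no annotated gene body and more than 500 bp from any start site, and whose nearest start site belonged to a protein-coding gene. Of the 3260 peaks on the 6 main chromosome arms, 453 had an intergenic summit beyond that distance, and 288 remained after 165 were set aside because their nearest start site was noncoding. Those 165 comprised 151 nearest to a long noncoding or other ncRNA gene, 12 to a tRNA gene, 1 to a snoRNA gene and 1 to a pseudogene. Within that list the rule used position alone, so signal, replicate support and base composition played no further part in the choice. The list itself had been thresholded by the authors on reproducibility between the replicates.

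The material was chromatin from whole prepupae aged 1 day, from 1 transgenic line carrying CG11294 fused to eGFP, in 2 biological replicates that form 1 group. The immunoprecipitation was described as anti-GFP, whereas the antibody label named CG11294, and which protein was recovered was not tested. Only this 1 group was analysed, with no control precipitation and no input, so no conditions are compared, and the p-values measure spread over peaks and not over animals. Which tissues of the animal contributed cannot be told apart in whole prepupae, nor can fewer occupied cells and less binding in each.

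CG11294 is annotated as encoding a homeodomain protein, a class of transcription factors that bind short AT-rich words with the core TAAT. Sequence between genes in flies can hold enhancers, DNA elements that bind transcription factors and act on a promoter at a distance, often of a neighbouring gene and sometimes past it. The nearest gene is therefore a name for a site and not evidence of its target. Introns are the other usual place for such elements, so summits in introns more than 500 bp from any start site (1552 peaks) served as the closest comparison, beside summits within 500 bp of a start site (1168 peaks, called promoter summits below). A further comparison used the relaxed peaks from which the main list was thresholded. Those that touched a peak of the main list or of the authors' pooled thresholded list were left out. Those of the rest that met the same position rule were kept (14233 summits, called background summits). Background summits had thus not passed the main list's threshold, but could touch a peak in a single replicate's thresholded list.

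The word CACTG, or its reverse complement CAGTG, gave the lowest p of the 22 fixed motifs when these sites were set against their flanks. CACTG had been seen in an earlier look at the whole list, which holds these sites, so that rank is not independent of the choice. The windows below show 200 bases around 6 summits, on the forward strand of the dm6 genome (Release 6), named for the gene with the nearest start site. Capitals mark CACTG or CAGTG. The first 2 are the strongest sites whose sequence is shown, CG13676 and CG3847 are sites among the 20 strongest with 3 matches each, hh is a site upstream of a signalling gene, and ed is a strong site with no match.
CG31668, chr2L:2202306-2202505: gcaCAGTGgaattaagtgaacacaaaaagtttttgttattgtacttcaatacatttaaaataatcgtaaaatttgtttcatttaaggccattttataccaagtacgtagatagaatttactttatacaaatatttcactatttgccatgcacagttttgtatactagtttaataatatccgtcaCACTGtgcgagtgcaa
CG43245, chr3L:10776460-10776659: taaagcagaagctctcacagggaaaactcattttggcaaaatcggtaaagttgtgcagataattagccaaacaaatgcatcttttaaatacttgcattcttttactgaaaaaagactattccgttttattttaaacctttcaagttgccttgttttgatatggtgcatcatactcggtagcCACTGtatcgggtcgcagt
CG13676, chr3L:8153271-8153470: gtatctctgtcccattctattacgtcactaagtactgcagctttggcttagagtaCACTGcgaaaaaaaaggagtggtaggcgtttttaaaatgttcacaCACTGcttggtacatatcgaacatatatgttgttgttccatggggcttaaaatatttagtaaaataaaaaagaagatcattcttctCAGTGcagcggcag
CG3847, chrX:6344060-6344259: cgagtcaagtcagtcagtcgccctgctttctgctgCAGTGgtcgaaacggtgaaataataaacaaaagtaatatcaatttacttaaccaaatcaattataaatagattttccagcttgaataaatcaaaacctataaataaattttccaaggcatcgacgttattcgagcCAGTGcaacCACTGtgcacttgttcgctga
hh, chr3R:23149063-23149262: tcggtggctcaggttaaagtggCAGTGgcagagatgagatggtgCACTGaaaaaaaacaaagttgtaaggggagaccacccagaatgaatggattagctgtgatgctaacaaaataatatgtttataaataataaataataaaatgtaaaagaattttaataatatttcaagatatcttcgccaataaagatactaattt
ed, chr2L:4030557-4030756: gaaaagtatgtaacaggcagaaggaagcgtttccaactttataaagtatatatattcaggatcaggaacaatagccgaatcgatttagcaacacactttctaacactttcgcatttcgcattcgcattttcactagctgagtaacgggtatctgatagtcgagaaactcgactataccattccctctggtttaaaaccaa

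In the CG31668 window a match lay close to each end and none lay in the middle, and in the CG3847 window all 3 matches lay away from the centre. In the hh window both matches lay in the left part, while in the CG13676 window the middle match lay beside the summit. The ed window held none, although its peak was 10th of the 288 sites by signal.

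The strongest intergenic sites were found in the thresholded lists of both replicates. The signal is the authors' per-peak statistic, whose scale was not given in the sources used here, and it ranks peaks within a list. The site 11915 bp downstream of the start of CG13323, on arm 2R, had the highest signal of the 288 at 1089, with 536 in replicate 1 and 553 in replicate 2. The site 3760 bp downstream of CG31668 followed at 1048, with 554 in replicate 1 and 475 in replicate 2. These were 10th and 13th of the whole list and stood well apart from all other intergenic sites, in both replicates. The next was a site 4635 bp downstream of the start of CG43245 on arm 3L, at 555, with 305 and 252 in replicates 1 and 2.

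Further sites lay near genes on several arms. The site 507 bp upstream of CG17896 on the X had a signal of 468, with 278 in replicate 1 and 196 in replicate 2. A site 1911 bp upstream of Atf3, which encodes a bZIP transcription factor, had 431, with 252 and 176 in the replicates. Both of these X-linked sites were higher in replicate 1. The site 578 bp upstream of ds (dachsous, an atypical cadherin of planar polarity) had 357, with 125 in replicate 1 and 220 in replicate 2, and so went the other way. The site 720 bp upstream of ed (echinoid, an immunoglobulin-domain adhesion protein) had 353, with 199 and 146.

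Further down the 20 strongest, the site 3360 bp upstream of foxo, which encodes the forkhead factor of insulin signalling, had a signal of 275, with 157 in replicate 1 and 117 in replicate 2. The site 679 bp upstream of RasGAP1, a Ras GTPase-activating protein, had 288, with 104 and 178. The site 14214 bp upstream of pxb had 276, with 145 and 128, and lay in a gap of 28001 bp between genes. Distance from the start site was thus no bar to a high signal: the 20 strongest spanned 507 bp upstream of CG17896 to 32041 bp upstream of CG43245. The others of the 20 lay nearest to CG12643, CG6149, CG43131, dpr20, Msr-110, CG13676, spel1 (the fly MutS homologue of mismatch repair), CG13898 and CG3847, with signals from 269 to 418. All 20 overlapped thresholded peaks of both replicates.

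Over all 288 sites the signal ran from 2.84 to 1089, with a median of 103 and quartiles of 77.5 and 149. The median was 105 over intron summits and 128 over promoter summits. Of the whole list, 50% lay above its median by construction, and 131 of the 288 did (45.5%, Wilson 95% interval 39.8 to 51.3, here and below for counting error only). The share was 50.4% among all other summits of the list (two-sided Fisher's exact test, p = 0.123) and 46.1% among intron summits (p = 0.898). The difference from intron summits was -0.583 percentage points, with an interval of -6.76 to 5.69. Promoter summits passed the median more often, at 57.6% (difference -12.1 points, -18.4 to -5.69, exact p = 0.000265, adjusted p = 0.000719 over the 19 tests of shares made). Against all other summits the lower share passed the threshold when replicate 1's own list (-13.0 points), the pooled list (-7.81) or the upper part of the list above its median signal (-16.2) was used in place of the main list.

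**Figure D1:**
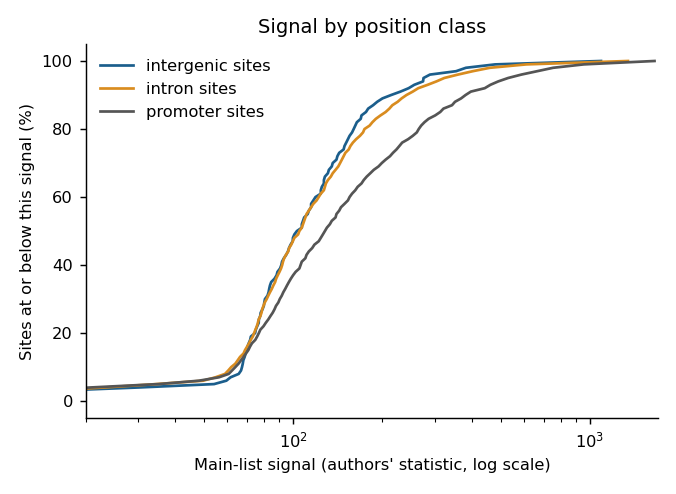
Cumulative share of sites (y axis, percent) at or below each main-list signal (x axis, authors' statistic, log scale) for 288 intergenic, 1552 intron and 1168 promoter sites. The intergenic and intron curves are close around their medians of 103 and 105, and the promoter curve lies to their right there, with a median of 128, but to the left of the intergenic curve among the weakest sites (63.9 against 67.3 at 10%).

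A signal under 10 was found at 6 sites, each of which had another listed summit within 400 bp. Most peaks had the same width: 200 of the 288 were 340 bp wide, and the narrower ones were those found in both replicates in 83 of 88 cases, against 68 of 200 at 340 bp. An annotated transposable element held 2 of the 288 summits, and 263 of the 14233 background summits. The pooled list held an overlapping peak for 274 of the 288, and for 2775 of the 2972 other listed summits.

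Support from the individual replicates was divided. Over the whole list 54.8% of summits overlapped a thresholded peak of both replicates, and 151 of the 288 intergenic sites did (52.4%, 46.7 to 58.1). A further 61 overlapped only a replicate 1 peak, 40 only a replicate 2 peak, and 36 neither (12.5%). Other summits of the list had both in 55.1% (difference -2.65 points, -8.68 to 3.32, p = 0.42), intron summits in 52.8% (p = 0.898) and promoter summits in 58.6% (p = 0.0624), all by two-sided Fisher's exact tests. Support went with strength, as 123 of the stronger 144 sites and 28 of the weaker 144 had both. The main-list signal is a value for both replicates pooled, so strength and support are not independent.

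In the ranked lists of relaxed peaks, 286 sites had a replicate 1 peak and 287 a replicate 2 peak, with median signals of 52.4 and 52.3. Spearman's rho between the replicates was 0.471 over the 285 sites with both, 0.562 over 1525 intron summits and 0.65 over 1141 promoter summits; these are descriptions, since all points share the same 2 libraries and neighbouring summits can share a replicate peak. Replicate 1 was the higher of the replicates at 139 of the 285 sites (48.8%, 43.0 to 54.6). The same count was 56.5% at intron summits (54.0 to 58.9) and 70.6% at promoter summits (67.9 to 73.2). The shares of the other classes were computed after that of the intergenic sites was seen, and no test was made. The signal scales of the replicates were not shown to be equal, so only the order of the classes can be read.

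**Figure D2:**
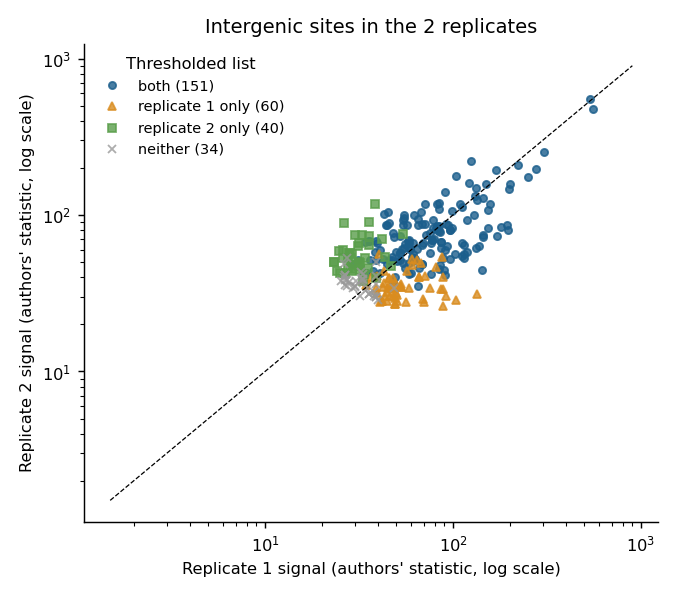
Replicate 1 against replicate 2 signal (authors' statistic, both axes log scale) for the 285 intergenic sites with a ranked peak in both, with marks for the thresholded lists that hold them and a dashed line of equality. The 2 sites near 500 are those of CG13323 and CG31668, and all but 2 of the 134 sites found in 1 list or neither are at or below the median signals of 52.4 and 52.3 in at least 1 replicate.

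The intergenic sites were closer to start sites, and more often on their upstream side, than background summits that met the same position rule. The median distance was 2420 bp, with a range of 503 to 34044 bp, against a median of 4150 bp in background. Of background summits 19.0% lay more than 10 kb from the nearest start site, and 28 of the 288 sites did (9.72%, 6.81 to 13.7; difference -9.27 points, -12.3 to -5.25; two-sided Fisher's exact test, p = 2.49e-05, adjusted p = 7.88e-05). Between 500 and 1000 bp the shares were 20.1% of sites and 8.66% of background, and between 1000 and 2000 bp 25% and 16.0%. From 2000 to 5000 bp they were 29.9% and 32.5%, and from 5000 to 10000 bp 15.3% and 23.8%. Among summits above the list's median signal the difference beyond 10 kb was -5.25 points and did not pass the threshold (exact p = 0.145).

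**Figure D3:**
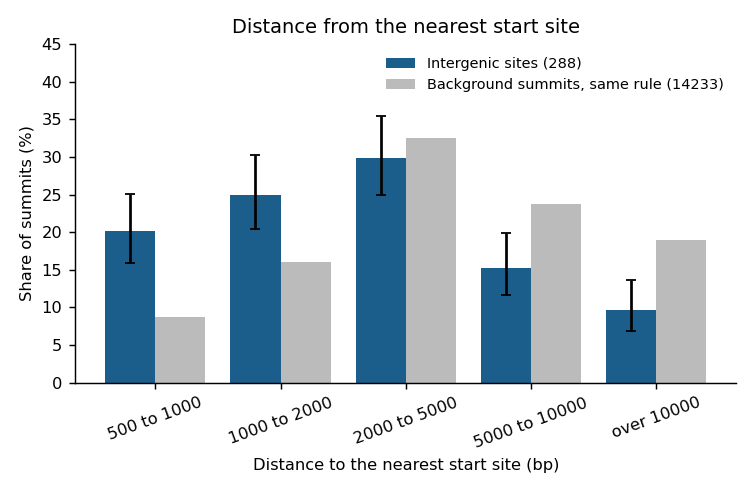
Share of summits (y axis, percent) in 5 classes of distance to the nearest start site (x axis, bp) for the 288 intergenic sites, with Wilson 95% intervals, and for 14233 background summits under the same rule. The sites exceed background in the classes below 2000 bp and fall below it beyond 5000 bp.

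The upstream side of the nearest start site held 62.3% of background summits and 214 of the 288 sites (74.3%, 69.0 to 79.0). The difference was 12 points (6.62 to 16.8; two-sided Fisher's exact test, p = 2.07e-05, adjusted p = 7.87e-05). Side and distance were not independent, since the rule left out gene bodies, which lie downstream of their start sites. With the limit set at 1000 bp the upstream shares were 67.8% and 59.5% (difference 8.32 points, two-sided Fisher's exact test, p = 0.012). The upstream difference was not tested within classes of distance. Base composition moved with the comparison, since background windows averaged 45.6% GC and the sites 35.7%. With sites and background both limited to windows under 40% GC, a comparison chosen after seeing the data, the upstream difference was 11.2 points (exact p = 0.000733) and the difference beyond 10 kb -5.67 points (p = 0.0232). Of the gaps between genes that held the sites, those between divergent genes accounted for 97 sites, tandem gaps for 137 and convergent gaps for 54.

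At the distance limit itself the sites just inside were those of CG6225 at 503 bp, CG17896 at 507 bp, Cpr72Eb at 517 bp and Sqor at 521 bp, with signals of 160, 468, 86.8 and 101. Just outside it lay summits 500 bp from by, 485 bp from Poxm, 480 bp from Mkp3 and 468 bp from zormin, with signals of 52.6, 225, 217 and 74.7. All 8 lay upstream, and the signals on the inner and outer side of the limit overlapped.

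The 3L arm held 93 sites (32.3%, 27.2 to 37.9), where 20.3% of intron summits and 21.5% of background summits lay. The X held 28 (9.72%, 6.81 to 13.7), against 24.3% of intron summits, 20.6% of all other listed summits and 15.5% of background. Arms 2L, 2R and 3R held 50, 41 and 76 sites, and the fourth chromosome held 0. These shares are given as a description, without a test, and the sexes of the animals were not recorded.

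Another listed summit lay within 5 kb of 53.7% of all summits and of 146 of the 288 sites (50.7%). Intron summits had such a neighbour in 59.0% (difference -8.26 points, -14.5 to -2.03; two-sided Fisher's exact test, p = 0.00946, adjusted p = 0.02). All other summits had one in 53.9% (exact p = 0.294), a difference whose sign turned at a distance of 2 kb and among summits above the median signal, and which passed the threshold at -9.05 points when sites within 500 bp of each other were counted once. The 288 sites fell into 274 such runs, had 221 different nearest genes and occupied 217 gaps between genes. Of these gaps 170 held 1 site, 31 held 2, 12 held 3, 1 held 4, 2 held 5 and 1 held 6.

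The gap with 6 sites was the 75047 bp between NijA (a ninjurin) and CG43245 on 3L. Its sites lay in 2 clusters, 3 between 41.9 and 44.1 kb from the left end and 3 between 54.0 and 59.4 kb, and the left part of the gap held none. The strongest, 32041 bp upstream of CG43245, had 194 in replicate 1 and 86.9 in replicate 2. All 6 were higher in replicate 1, the weakest with 45 against 34.3. The stronger CG43245 site whose sequence is shown lay on the other side of that gene.

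The gap of 32964 bp next to CG13898 held 5 sites. Its strongest, 1133 bp downstream of the start of CG13898, had 131 in replicate 1 and 132 in replicate 2. The sites at 16270, 3745 and 1757 bp had 55.0 and 95.3, 33.9 and 53.3, and 42.4 and 52.3, while that at 12638 bp had 67.2 and 49.4. Replicate 2 was thus the higher at 4 of these 5 sites, at the strongest by 131 against 132. The 19272 bp gap between Pgant2, a GalNAc transferase, and CG2772 also held 5 sites, of which the strongest, 5509 bp upstream of CG2772, had 71.1 and 117. The sites 1016 and 816 bp upstream of CG2772 shared the same replicate peaks, with 52.4 and 56.8, and are not separate measurements there.

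The gap of 17686 bp between CG8635 and ptc held 4 sites, 3 of them nearest to ptc, the receptor of Hedgehog. The site 5269 bp upstream of ptc had 67.9 in replicate 1 and 104 in replicate 2, that at 3703 bp 25.1 and 42.9, and that at 3051 bp 34.1 and 67.6. All 4 in this gap were higher in replicate 2. Among the 12 gaps with 3 sites, that between Atg13, of autophagy, and stck, a LIM-domain protein of cell adhesion, had the highest summed signal. Its gap was only 4160 bp long, and the site 1783 bp upstream of stck had 172 in replicate 1 and 73.4 in replicate 2.

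**Figure D4:**
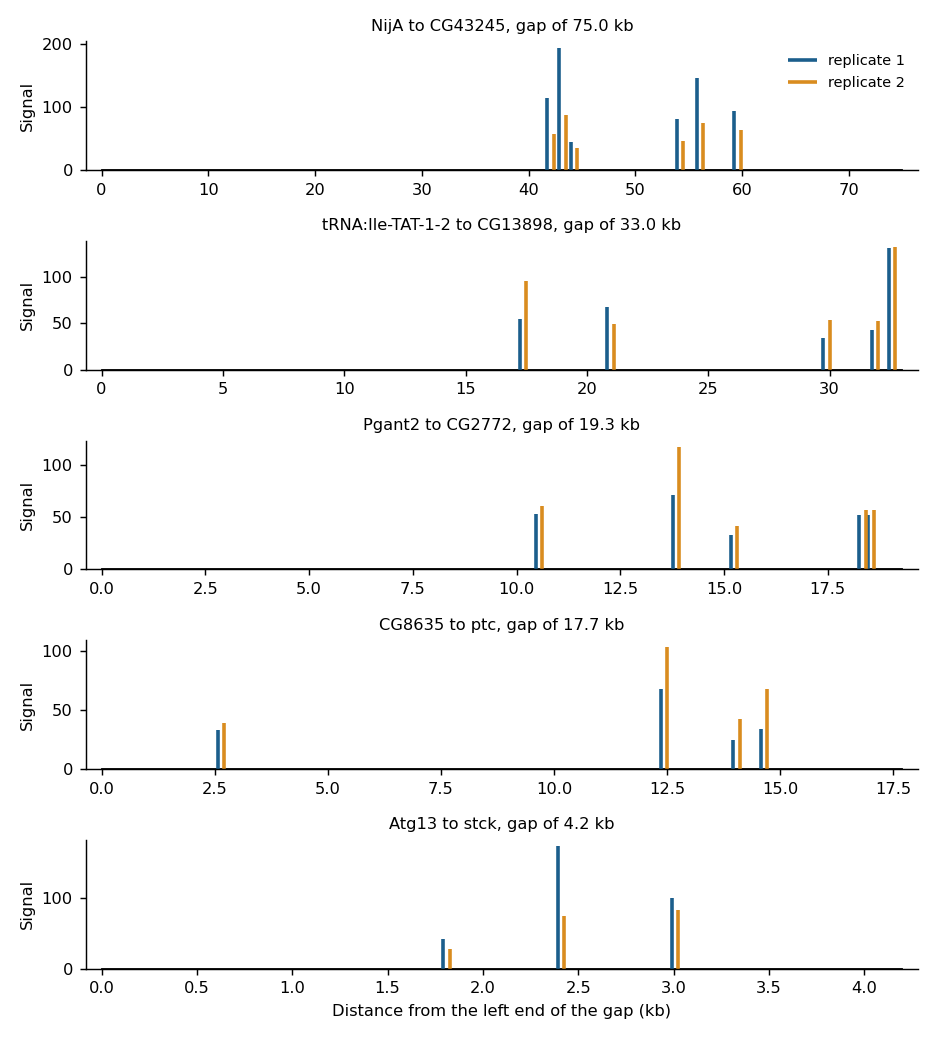
Replicate 1 and replicate 2 signals (y axes, authors' statistic, linear scale from 0) of every site in the 5 gaps named in the text, by distance from the left end of the gap (x axes, kb; bars of a pair are set apart for display). Replicate 1 is the higher at all sites of the NijA to CG43245 and Atg13 to stck gaps, replicate 2 at all sites of the Pgant2 to CG2772 and CG8635 to ptc gaps, and the CG13898 gap is mixed; the replicates' scales were not shown to be equal.

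The sites were AT-rich beyond their surroundings. Windows of 200 bp averaged 35.7% GC (SD 6.47 over 288 sites), against 41.1% in windows centred 500 bp to the left (SD 8.56). Under 40% GC lay 76.3% of all listed windows, 228 of the 288 sites (79.2%, 74.1 to 83.5) and 39.9% of their flanks (two-sided exact McNemar test, p = 5.18e-22, adjusted p = 4.92e-21). Intron summits had 78.3% (difference 0.881 points, -4.55 to 5.67, exact p = 0.815) and promoter summits 74.6% (p = 0.109). Background summits under the same rule had 20% (difference 59.1 points, 54.0 to 63.5, exact p = 3.21e-100), the last 3 by two-sided Fisher's exact tests.

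CACTG on either strand, the word in capitals in the windows above, occurred within 100 bp of 52.6% of all listed summits and of 164 of the 288 sites (56.9%, 51.2 to 62.5). It had been seen in an earlier look at the whole list, so its presence at these sites is not independent of that choice. The flanks held it in 27.1% (22.3 to 32.5; two-sided exact McNemar test, p = 2.55e-13, adjusted p = 1.21e-12). Background summits held it in 33.8% (difference 23.1 points, 17.3 to 28.8, exact p = 2.31e-15), and promoter summits in 46.9% (difference 10 points, 3.58 to 16.3, p = 0.00246, adjusted p = 0.00584). Intron summits held it in 55.3%, and the difference of 1.6 points had an interval of -4.68 to 7.71 (exact p = 0.651).

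The difference from background was also seen within classes of base composition. Within each of 5 GC strata a higher share of sites than of background held the word, from 45.5% against 28.8% below 30% GC to 68.6% against 32.9% between 40 and 45%. The pooled odds ratio over the strata was 2.72 (2.13 to 3.47, Cochran-Mantel-Haenszel chi-square test, p = 1.11e-16). That p is at the numerical limit of the calculation and is not to be ranked against the others. The word occurred once at 108 sites, at 46 sites there were 2 and at 10 sites 3, against 66, 11 and 1 of the flanks.

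The share with CACTG was much alike in strong and weak sites, at 56.2% of the stronger 144 and 57.6% of the weaker 144. It was 58.3% of sites in both replicate lists, 56.4% of those in 1 and 52.8% of those in neither. Downstream of the start site it was 66.2% (54.9 to 76.0) and upstream 53.7% (47.1 to 60.3), intervals that overlap and were not tested.

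The word was less frequent right at the summit than on its shoulders. Within 50 bp of the summit there were 5.47 occurrences per 100 sites and 25 bp, between 50 and 150 bp there were 12.9, and between 200 and 300 bp 5.77. Intron summits gave 6.14, 12 and 5.48. The rate at the summit was thus near that at 200 to 300 bp in both classes. In a window of 100 bp around the summit 18.4% of sites held the word, against 9.72% of flanks (two-sided exact McNemar test, p = 0.00407). In the CG31668 window shown above the matches stood in those outer zones. The 2 orientations were counted on each side: 50 to 100 bp left of the summit CACTG occurred 52 times and CAGTG 31 times, and to the right 39 and 53 times. At intron summits the same counts were 248 and 190 on the left and 197 and 243 on the right, whereas at promoter summits they were 109 and 113, and 140 and 127. At the intergenic sites the left-hand excess came from the bin of 75 to 50 bp, with 34 against 13. These zones were chosen after the profile was seen and carry no test.

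**Figure D5:**
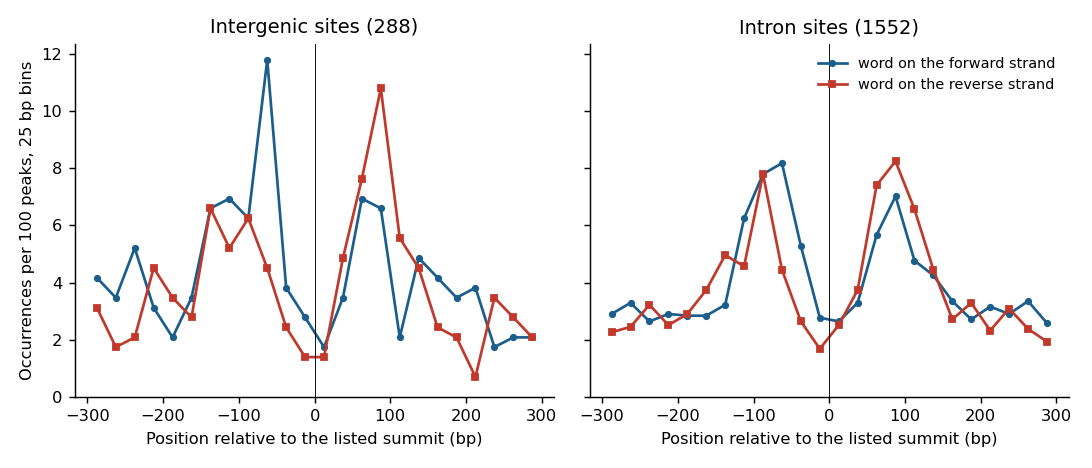
Occurrences of CACTG on the forward strand and on the reverse strand per 100 peaks in 25 bp bins (y axis) by position from the summit (x axis, bp), at 288 intergenic and 1552 intron sites. Both panels are lower at the summit than between 50 and 100 bp on either side; at the intergenic sites the bin from 75 to 50 bp left of the summit held 34 forward and 13 reverse matches, and the bin from 75 to 100 bp right of it 19 and 31, while the next bin to the left, from 100 to 75 bp, held 18 of each.

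Of the 22 fixed motifs, 3 (13.6%) were more frequent at the sites than in the flanks and 0 (0%) less frequent, at an adjusted p under 0.05 (two-sided exact McNemar tests, Benjamini-Hochberg over the motifs). Besides CACTG these were TAAT, in 272 sites and 238 flanks (94.4% and 82.6%, adjusted exact p = 0.000192), and the TATA box word TATAAA, in 100 sites and 66 flanks (34.7% and 22.9%, adjusted p = 0.0179). All motifs were read on both strands, and a match is a run of letters and not a shown binding site. The longer homeodomain word TAATTA, which contains TAAT, was in 42 sites and 52 flanks (14.6% and 18.1%, adjusted exact p = 0.884). A paired-class dimer, which contains TAAT too, was in 9 sites and 6 flanks. Both AT-rich words that were more frequent, TAAT and TATAAA, went with the lower GC of the sites, whose part in these counts was not tested. With the list of replicate 2 alone 1 motif passed, and with that of replicate 1 alone 2.

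Against intron summits none of the 22 motifs differed in either direction (0% higher and 0% lower), and the lowest unadjusted exact p was 0.0289, for CAGCTG, at 3.12% of sites and 6.44% of intron summits (adjusted p = 0.636). Against promoter summits 1 motif was higher (4.55%), which was CACTG, and 3 were lower (13.6%). The latter were CAGCTG (3.12% and 9.76%, adjusted exact p = 0.00274), the DNA replication-related element TATCGATA (0% of sites and 3.34%, adjusted p = 0.00335) and CGATA, which lies inside that element and in the word of the insulator protein BEAF-32 (18.4% and 27.2%, adjusted p = 0.0135). Against background summits 6 motifs were higher (27.3%) and 1 lower (4.55%), by two-sided Fisher's exact tests. The higher ones were the 3 that also exceeded the flanks, the GATA-type word TGATAA (14.6% and 9.65%, adjusted exact p = 0.0317), a run of A (15.3% and 9.7%, adjusted p = 0.0152) and the paired-class dimer (3.12% and 1.23%, adjusted p = 0.0353), with CAGCTG lower (3.12% and 9.79%, adjusted p = 0.000158).

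Over all 2080 words of 6 bases, each counted with its reverse complement, 28 (1.35%) were more frequent at the sites than in the flanks and 17 (0.817%) less frequent, at an adjusted p under 0.05 and a ratio of at least 1.5 or its inverse. The largest ratio was that of CTACAC, in 50 sites and 11 flanks (ratio 4.55, adjusted exact p = 4.16e-05). GTGCAC, its own reverse complement, was in 43 sites and 12 flanks (ratio 3.58, adjusted exact p = 0.00491), and ACTAAG in 32 and 9 (ratio 3.56, adjusted p = 0.028). AGTGTA was in 76 and 23 (ratio 3.3, adjusted exact p = 1.09e-05), AGTATA in 42 and 13 (ratio 3.23, adjusted p = 0.00533) and GTACAC in 40 and 13 (ratio 3.08, adjusted p = 0.0146). Of the 28 words, 6 held CACTG out of 8 such words tested, 5 held only A and T out of 36, and 27 were also higher than in background. Of the 17 less frequent words, 12 had 4 or more G or C, and all 17 were lower than in background. The number of words depended on the list: in all 45 differed from the flanks here, 111 with the list of replicate 1 alone, 5 with that of replicate 2 alone, 99 with the pooled list and 2 among summits above the median signal.

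Several of these words overlap in sequence. The word AGTGTA, read on the other strand, overlaps the word of largest ratio, and both join in CTACACT, which was in 27 sites (9.38%) and 6 flanks, 5.28% of intron summits and 1.38% of background. With the next base, CTACACTG, which ends in CACTG, was in 14 sites (4.86%) and 3 flanks, 3.03% of intron summits and 0.534% of background. Of the 288 sites, 173 (60.1%) held at least 1 of the 6 words named, against 65 flanks (22.6%). One of them together with CACTG was in 108 sites (37.5%), and 59 held neither (20.5%). The 6 words had the largest ratios at these same sites, and some can overlap CACTG. The joint count thus does not show that they occur together beyond their single rates. These longer words and joint counts were formed after the single words were seen and are not tested.

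Against intron summits 0 words (0% higher and 0% lower) passed, with a smallest adjusted p of 0.209 by two-sided Fisher's exact test. Of the 2080 words, 113 had an unadjusted p under 0.05, a share near that threshold itself. Of these, 69 were higher at the intergenic sites. CTACAC was in 17.4% of intergenic sites and 11.3% of intron summits (adjusted exact p = 0.698). No difference in single words from introns was thus detected, which does not show that the classes are alike. Against promoter summits 4 words were higher (0.192%) and 2 lower (0.0962%). Against background 325 were higher (15.6%) and 438 lower (21.1%).

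Genes of known roles were counted among the nearest genes, from lists chosen with earlier results of these data known, and are described without a test. The lists were partial, so each count below covers the listed genes only. Transcription factors with a homeobox were nearest to 7 of the 288 sites (2.43%, 1.18 to 4.93), against 0.644% of intron and 0.171% of promoter summits but 3.4% of background. The share thus stood above those of the other listed classes and not above that of background under the same rule. The sites 33840 and 9592 bp downstream of the start of vvl, a POU-homeodomain factor, had 86.5 and 67.3, and 85.6 and 47.8, in replicates 1 and 2. Also among the 7 was a site 34044 bp downstream of the start of vvl. It shared the replicate peaks of that at 33840 bp and is not a separate measurement there. The site 1079 bp upstream of NK7.1 had 58.3 and 69.4. The site 1002 bp upstream of Dll (Distal-less, of limb development) had 26.2 and 88.5, and was in the replicate 2 list only. The sites of Dr and Lim1, at 10786 and 29823 bp downstream, had 47.0 and 46.9, and 32.3 and 43.0. That of Dr was in the replicate 2 list only, and that of Lim1 in neither list.

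Genes on a list of other transcriptional regulators were nearest to 13 sites (4.51%), against 2.58% of intron summits and 3.36% of background. That list did not include foxo (signal 275 at 3360 bp upstream) or Myc (149 at 1661 bp upstream). It held hairy under the symbol h, which had no match in the annotation. The site 3078 bp upstream of hry (hairy, signal 66.8) was therefore not counted, nor were other summits nearest to that gene. After Atf3 among the listed genes came klu, a zinc finger factor, with 55.1 in replicate 1 and 100 in replicate 2 at 1453 bp upstream. The site 1430 bp upstream of lola, a BTB zinc finger factor of axon guidance, had 77.3 and 69.4. The site 2367 bp upstream of dsx (doublesex, of sexual differentiation) had 69.6 and 66.0, and was close to even between replicates. The sites of kay (the fly Fos), 2601 bp upstream, and chinmo, a BTB zinc finger factor, 1526 bp upstream, had 70.9 and 41.0, and 88.4 and 26.1. Both were in the replicate 1 list only. Of the 13 sites 3 were nearest to chinmo, in part shared replicate peaks and are not separate measurements there.

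Genes of the ecdysone response, the steroid programme of metamorphosis, were nearest to 4 sites (1.39%, with 1.68% of intron summits and 0.555% of background), of which 3 lay in the gap of 33567 bp upstream of Eip93F, an ecdysone-induced factor. The Eip93F sites at 11778, 17607 and 7583 bp upstream had 86.5, 88.4 and 104 in replicate 1 and 61.3, 53.0 and 28.7 in replicate 2. Each was higher in replicate 1, and that at 7583 bp was in the replicate 1 list only. The site 5049 bp upstream of hid, a cell death gene, had 47.7 and 76.8.

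Signalling genes were nearest to 9 sites (3.12%, with 2.51% of intron summits and 1.54% of background), 3 of them those of ptc. The site 7257 bp upstream of hh, the ligand whose receptor is ptc, had 55.3 in replicate 1 and 45.8 in replicate 2. The site 1513 bp upstream of aop, an Ets-family repressor, had 77.0 and 69.0, and that 5663 bp upstream of dally, a glypican, 62.5 and 52.2. The site 1765 bp upstream of fz, a Wnt receptor, had 91.7 and 30.2 and was in the replicate 1 list only. From the list of adhesion and guidance genes 5 sites were found (1.74%, with 2.47% of background): ds, dpr20, scb (an integrin alpha subunit) and 18w (a Toll-family receptor) with 2. That list did not include ed or stck, named above.

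Chemosensory genes (odorant, gustatory and ionotropic receptors and odorant-binding proteins) were nearest to 9 sites, 1 of them that of the odorant-binding protein gene Obp99b (3.12%, 1.65 to 5.83), against 0.129% of intron and 0.0856% of promoter summits, but 3.01% of background. The site 1963 bp upstream of Or45b had 90.2 in replicate 1 and 141 in replicate 2, the highest of the 9 in the main list at 229. On 3R the site 2493 bp upstream of Gr93d had 93.6 and 86.3. That 3408 bp upstream of Gr93a had 35.7 and 64.3, and was in the replicate 2 list only. The site 1325 bp downstream of the start of Gr89a had 55.0 and 61.9.

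Channels and receptors of neurons were nearest to 4 sites, of Ca-alpha1T, ppk, nan and 5-HT7, and to 0 intron and 0 promoter summits, with 1.49% of background against 1.39% here. The sites of nan and 5-HT7 were in neither replicate's thresholded list, and that of nan had no ranked replicate 1 peak. Cuticle protein genes were nearest to 3 sites (1.04%, with 0.941% of background), of Cpr62Bc, Cpr72Eb and Cpr76Ba. The sites of Cpr62Bc and Cpr72Eb were in the replicate 1 list only, and that of Cpr76Ba in neither. A ribosomal protein gene was nearest to 1 site (0.347%, 0.0613 to 1.94), 5445 bp upstream of RpL10Aa, with 1.71% of promoter summits and 0.485% of background. That site was in neither replicate's thresholded list. From the heat shock list 1 site was found (0.347%, with 0.514% of promoter summits and 0.0703% of background), 570 bp upstream of stv, a BAG-domain cochaperone, with 154 in replicate 1 and 82.7 in replicate 2.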

How the data were processed

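The files were peak lists on dm6, per the labels; aligner, caller and versions are not given in the sources used here, and read depth is unknown, so intervals cover counting of peaks only. Each peak carries a signal, the authors' per-peak statistic as deposited, on a scale that no label or header states. The main list held 3261 peaks (3260 on the arms), thresholded by the authors on the irreproducible discovery rate between replicates; all 3261 were found with the same ends and summit in the ranked list used for background. The replicates' thresholded lists held 3229 and 2709 peaks and their ranked lists 66090 and 89686. In that ranked list 8 columns that repeat its inputs were not used.

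Summits were placed on Ensembl release 115 BDGP6 genes without transposable elements, and sequence was read from the RefSeq Release 6 genome, within whose arm lengths all peaks lay. Peaks overlapped at 1 bp or more; a replicate's signal is that of the ranked peak overlapping the main peak. Shares were compared with two-sided Fisher's exact and exact McNemar tests, with Benjamini-Hochberg adjustment over 19 tests, 22 motifs or 2080 words (Python 3.11.15, scipy 1.17.1, pandas 2.3.3, statsmodels 0.14.6). The word scan was tested on simulated data. Genes named were those nearest to the 20 strongest sites, flanking the 5 gaps with most sites (ties by summed signal), up to 6 of the strongest in each of 10 gene lists, and 4 on each side of the distance limit; words named were the 6 of largest ratio. List symbols with no match in the annotation were not analysed here. The sites, lists and tests were chosen with earlier results of these data known.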

Additional observations from a re-analysis of the deposited data

How the results depend on the processing

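The upstream position, the AT-richness and the CACTG share kept their direction and passed the threshold in each alternative run: each replicate's list alone, the pooled list, summits above the median signal, a limit of 1000 bp and 1 site per run within 500 bp, and, for base composition and CACTG, a 100 bp window and the right flank. The CACTG difference from the flank was 8.68 points in the 100 bp window. For the share above the median signal (-4.95 points against other summits), the lists of single replicates gave -13.0 to -5.2, of which -13.0 without replicate 2 passed the threshold (exact p = 4.22e-05), as did -7.81 with the pooled list and -16.2 among summits above the median signal. The deficit beyond 10 kb was -5.25 points among summits above the median signal and no longer passed. The difference in neighbouring summits (-3.24 points) ranged from -2.33 to 2.6 over the single replicates, and was 6.75 among summits above the median signal, 1.73 at 2 kb and -9.05 with 1 site per run. Motifs higher or lower than in the flank numbered 1 without replicate 1 and 2 without replicate 2, beside 3. Words differing from the flank (45) numbered 5 without replicate 1 and 111 without replicate 2, 99 with the pooled list, 2 among summits above the median signal and 763 against background. In each of these cases the cause was not tested; the lists differ in their number of sites. Replicate support could not be computed without a replicate. No paired analysis was possible because there was only 1 group. Read depth was unknown.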
